A study of Mus musculus with 8 samples.

Results

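The immunoglobulin kappa V genes of the mouse, named Igkv, were described in blood mononuclear cells of mice given fucoidan or saline. They were taken as every gene of the count table with the biotype IG_V_gene and a name that begins with Igkv, which gave 100 of 56748 genes. All lie on chromosome 6 between 67532481 and 70681161 (GRCm39, coordinates of the deposited table). Igkj1, the first of the joining genes, starts at 70699546, and Igkc, the constant gene, lies at 70703419 to 70703950.

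Messenger RNA was sequenced from peripheral blood mononuclear cells of wild-type male C57BL/6J mice, 8 weeks old, which received a daily gavage for 1 month while on a standard diet. The 3 fucoidan libraries came from mice given 200 mg per kg per day of fucoidan, a sulphated polysaccharide of brown seaweed, here of Undaria pinnatifida. The 5 saline libraries came from mice given an equal volume of saline. Each library is titled as a biological replicate, and the p-values below measure the spread between these libraries.

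A kappa light chain gene is assembled in developing B cells, where the RAG recombinase joins a V gene to a J gene upstream of the constant gene Igkc. A mature B cell as a rule expresses a single assembled light chain, kappa or lambda, so V transcripts in blood reflect which V genes its B cells and plasma cells use and how strongly these cells transcribe them. Each V gene has a short leader exon and a V exon, which encodes the first and second complementarity determining regions (CDRs, the loops that contact antigen) and the start of the third, whose remainder is made at the joint with J.

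V genes of a subgroup, the number that follows Igkv in the name, are close in sequence, which bears on how reads can be assigned to them. The ends of the V exons follow for the 14 kappa V genes called lower after fucoidan and for the 2 most abundant ones, Igkv1-117 and Igkv1-135, because they hold the part of CDR3 that each V gene brings to the joint. Capitals mark the germline bases after the last in-frame cysteine codon, the conserved cysteine that precedes CDR3. Each line holds the last 60 bases of the V exon, 5′ to 3′, from the GENCODE M21 transcripts (GRCm38), which were matched to the table by Ensembl gene ID for all 100 genes.
Igkv6-15: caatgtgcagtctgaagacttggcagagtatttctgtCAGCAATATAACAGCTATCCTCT
Igkv6-17: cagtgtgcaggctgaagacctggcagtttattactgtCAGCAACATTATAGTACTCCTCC
Igkv6-20: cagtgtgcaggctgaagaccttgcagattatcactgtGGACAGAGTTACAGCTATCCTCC
Igkv6-32: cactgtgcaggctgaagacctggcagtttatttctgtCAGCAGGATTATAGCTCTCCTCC
Igkv3-2: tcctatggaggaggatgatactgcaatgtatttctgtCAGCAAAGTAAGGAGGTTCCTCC
Igkv3-4: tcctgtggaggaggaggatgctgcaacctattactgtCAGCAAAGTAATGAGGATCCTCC
Igkv3-10: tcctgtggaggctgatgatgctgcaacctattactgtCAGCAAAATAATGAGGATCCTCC
Igkv3-12: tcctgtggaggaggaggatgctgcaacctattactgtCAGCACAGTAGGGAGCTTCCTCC
Igkv14-111: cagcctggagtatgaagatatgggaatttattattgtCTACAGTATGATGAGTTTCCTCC
Igkv14-126: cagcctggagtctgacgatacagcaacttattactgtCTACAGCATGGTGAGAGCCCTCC
Igkv5-48: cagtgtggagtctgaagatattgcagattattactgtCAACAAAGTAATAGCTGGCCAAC
Igkv10-96: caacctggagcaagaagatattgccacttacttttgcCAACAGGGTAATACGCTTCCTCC
Igkv12-46: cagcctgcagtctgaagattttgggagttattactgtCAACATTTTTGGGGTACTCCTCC
Igkv17-121: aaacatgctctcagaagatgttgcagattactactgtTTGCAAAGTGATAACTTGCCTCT
Igkv1-117: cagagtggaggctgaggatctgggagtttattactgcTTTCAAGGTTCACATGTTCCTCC
Igkv1-135: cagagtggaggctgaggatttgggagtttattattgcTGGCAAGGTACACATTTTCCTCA

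Among the capital ends of the 4 called Igkv3 genes, Igkv3-4 and Igkv3-10 differed at 1 of 23 bases and Igkv3-10 and Igkv3-12 at 6. Among those of the 4 called Igkv6 genes, the differences ran from 4 of 23 bases, for Igkv6-17 and Igkv6-32, to 10, for Igkv6-17 and Igkv6-20. Over the whole V exon (293 to 322 bases), the 532 pairs of genes within a subgroup were 73.2% to 99.0% identical with a median of 88.1%, and the 4418 pairs between subgroups 51.0% to 81.5% with a median of 63.1%. A V gene of the same subgroup was the nearest for 93 of the 100 genes, and for 45 the nearest was more than 95% identical.

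Reads of these libraries were pairs of 150 bases. An identical stretch of 150 bases was present in another kappa V gene or in 1 of the 60 kappa V pseudogenes for 10 of the 100 genes, and a stretch of 100 bases for 44. Of the 14 genes called lower, 3 (Igkv3-10, Igkv6-17 and Igkv6-20) had a shared stretch of 150 bases. Igkv6-20 had the most, with 46.0% of its 150-base windows also found in Igkv6-29, so the split of counts between these 2 genes is uncertain. The sources used here do not say how reads that fit several genes were counted.

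A pair with different outcomes shows how close such genes are, though a difference between its fold changes was not tested. Igkv6-15 had the smallest p of all kappa V genes and its nearest neighbour in sequence, Igkv6-13, was among the 3 with the highest fold changes. Their V exons of 298 bases differed at 14 bases, shown in capitals, and were 95.3% identical.
Igkv6-15: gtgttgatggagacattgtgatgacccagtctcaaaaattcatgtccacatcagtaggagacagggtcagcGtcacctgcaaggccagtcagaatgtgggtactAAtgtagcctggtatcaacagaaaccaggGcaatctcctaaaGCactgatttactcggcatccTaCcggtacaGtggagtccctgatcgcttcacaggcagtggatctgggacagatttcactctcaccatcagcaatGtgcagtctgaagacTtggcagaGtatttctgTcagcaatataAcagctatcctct
Igkv6-13: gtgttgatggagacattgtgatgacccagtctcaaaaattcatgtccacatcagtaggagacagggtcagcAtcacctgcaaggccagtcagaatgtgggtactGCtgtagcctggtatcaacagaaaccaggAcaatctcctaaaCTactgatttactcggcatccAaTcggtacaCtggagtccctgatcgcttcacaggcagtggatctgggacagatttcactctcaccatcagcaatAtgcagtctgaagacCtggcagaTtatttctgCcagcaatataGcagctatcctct
Igkv17-121, called lower, and Igkv17-127, not called, are both among the 12 most abundant kappa V genes. They are the only genes of their subgroup among the 100, and both share stretches of 50 bases with the pseudogene Igkv17-134. The V exons of Igkv17-121 and Igkv17-127 were 98.0% identical, with the 6 differing bases in capitals.
Igkv17-121: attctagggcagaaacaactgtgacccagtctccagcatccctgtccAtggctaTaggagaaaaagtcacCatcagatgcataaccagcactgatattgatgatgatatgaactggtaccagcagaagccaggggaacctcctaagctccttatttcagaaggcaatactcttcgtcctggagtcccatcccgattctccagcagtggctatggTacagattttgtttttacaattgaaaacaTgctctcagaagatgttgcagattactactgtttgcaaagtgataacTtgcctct
Igkv17-127: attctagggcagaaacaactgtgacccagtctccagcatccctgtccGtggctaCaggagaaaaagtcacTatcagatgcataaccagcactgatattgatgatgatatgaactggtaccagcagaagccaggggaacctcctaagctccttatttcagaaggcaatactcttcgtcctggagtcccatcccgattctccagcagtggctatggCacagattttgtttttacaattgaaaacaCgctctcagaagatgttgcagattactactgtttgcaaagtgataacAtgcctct

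The libraries held 13061703 to 16334932 counts over all genes. Kappa V genes took 9860 to 12391 counts in the saline libraries and 7483, 6624 and 3808 in fucoidan replicates 1, 2 and 3, so single V genes are measured with the least precision in fucoidan replicate 3. The B cell markers were present in every library, with all 15 above the count filter. Fucoidan replicate 3 stood apart in haemoglobin transcripts, which took 24.1% of its counts against 13.5% and 14.2% in the other fucoidan libraries and 3.51% to 8.48% in the saline libraries. Values are CPM scaled with TMM factors, that is, counts relative to the library's summed counts of genes above the filter, times its TMM factor. A level compared between genes is CPM per kilobase of transcript.

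Kappa V transcripts were lower in all 3 fucoidan libraries than in all 5 saline libraries. The summed CPM of the 100 genes was 678, 555, 734, 696 and 651 in saline replicates 1 to 5 and 518, 506 and 419 in fucoidan replicates 1 to 3. The means were 663 ± 67.3 (SD, n = 5) and 481 ± 54.0 (SD, n = 3), a ratio of 0.726. As a share of all counts, with no scaling factor, they took 0.0731% on average after saline and 0.0414% after fucoidan, a share that also falls where haemoglobin takes more of the total.

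Igkc, which encodes the constant part of every kappa chain, had a similar ratio of group means, 0.712. Its CPM was 1687, 1226, 1663, 1439.6 and 1312 in the saline libraries and 1149, 1148 and 832 in the fucoidan libraries. These do not overlap, but the difference did not pass the threshold (log2 fold change -0.49, SE 0.158, adjusted p = 0.0631 by edgeR's quasi-likelihood test). Kappa V counts per Igkc count were 0.402, 0.453, 0.441, 0.483 and 0.496 after saline and 0.451, 0.441 and 0.504 after fucoidan, which overlap. The 15 B cell markers summed to 5775 to 7381 CPM after saline and 5011, 4562 and 3502 after fucoidan, a ratio of 0.657. Kappa V counts per B cell marker count were 0.0995, 0.0961, 0.107, 0.0943 and 0.103 after saline and 0.103, 0.111 and 0.120 after fucoidan, which overlap, with a ratio of group means of 1.11. In RNA from mixed blood cells, fewer B cells and less kappa RNA per B cell cannot be told apart.

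**Figure D1:**
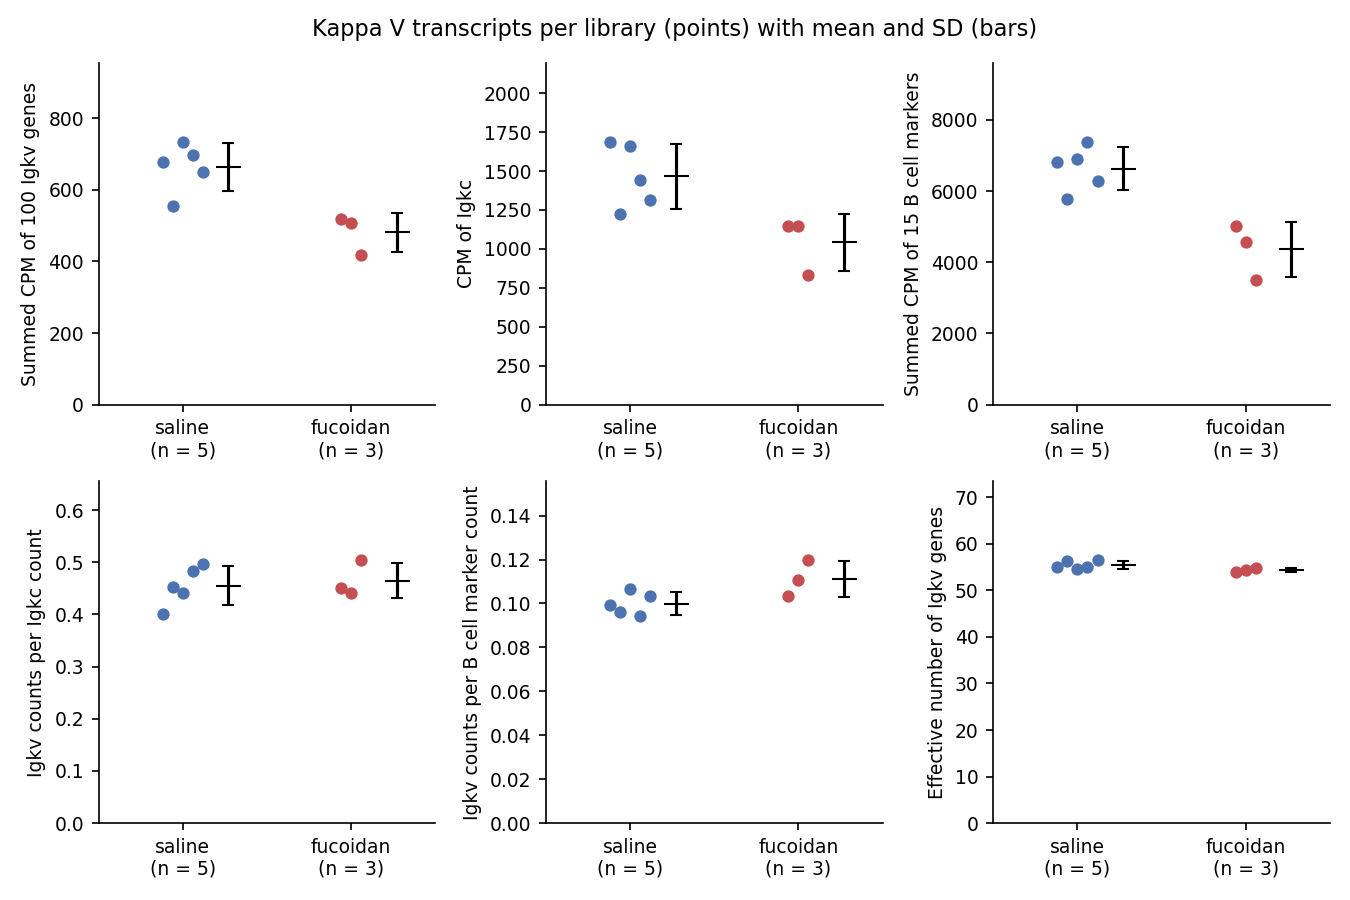
Measures of kappa V transcripts per library (points), with the group mean and SD as bars, for 5 saline and 3 fucoidan libraries. The top row, in TMM-scaled CPM, shows Igkv, Igkc and the B cell markers lower in the 3 fucoidan libraries, and the bottom row shows ratios and the effective number of Igkv genes, whose groups overlap.

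Transcripts of red cells, platelets and natural killer cells were higher after fucoidan. Of 11 erythroid markers tested 11 were called higher, where 9.11% of all genes tested were. Their summed CPM was 32015 to 88528 after saline and 154972 to 370480 after fucoidan. Platelet markers were higher for 9 of 9 and natural killer cell markers for 9 of 9, with summed CPM of 315 to 460 against 751 to 1007 for the latter. T cell markers were called higher for 3 of 10, with summed CPM of 720 to 916 after saline and 1028 to 1350 after fucoidan, without overlap. Monocyte and neutrophil markers were called higher for 0 of 10, and their summed CPM overlapped. The part of these cell types in the lower kappa V levels was not tested.

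Gene by gene, 85 of the 100 kappa V genes passed the count filter. The other 15 held between 1 and 55 counts over the 8 libraries together. Of the 85, 14 were called lower after fucoidan and 0 higher (edgeR's quasi-likelihood test, adjusted p under 0.05 over all 14723 genes tested). That is 16.5% of those tested, where 4.65% of all genes tested were called lower and 9.11% higher. At an unadjusted p under 0.05, 30 of the 85 (35.3%) were lower and 0 higher, where 13.3% of all genes were lower and 14.7% higher. DESeq2 called 15 lower (17.9% of those with an adjusted p, against 6.05% of all genes) and limma-voom 17 (20.0% against 7.13%), and neither called any higher.

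Log2 fold changes ran from -1.43 to 0.08, and 83 of the 85 were below 0. Their median was -0.46, a fold of 0.725, where the median of all genes tested was -0.04. In 23 of the 85 all 3 fucoidan libraries lay below all 5 saline libraries, and in 0 above, against 11.0% of all genes tested with such a lower position. Without a filter the median over all 100 genes was -0.48, with 12 called lower, where 2.33% of all genes were.

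The number of calls moved with single libraries. With the replicate number as a block, 4 kappa V genes, 4.71% of those tested, were called lower (Igkv6-17, Igkv6-15, Igkv3-10 and Igkv14-126), where 2.98% of all genes were, while the median was -0.46. Without fucoidan replicate 3, 1 of 87 kappa V genes was called lower (Igkv6-15). That is 1.15%, where 1.20% of all genes were, so the share of kappa V genes called was no higher than that of all genes. Their median in that fit was -0.38, with 80 of the 87 below 0, and that of all genes -0.03. The count of calls was 5 when saline replicate 3 or saline replicate 4 was left out (5.95% and 5.88%, against 3.07% and 2.25% of all genes). It was 8 without saline replicate 5 (9.41% against 3.71%). It was 7 when either fucoidan replicate 1 or fucoidan replicate 2 was left out (8.05% and 8.24%, against 2.41% and 2.08%).

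**Figure D2:**
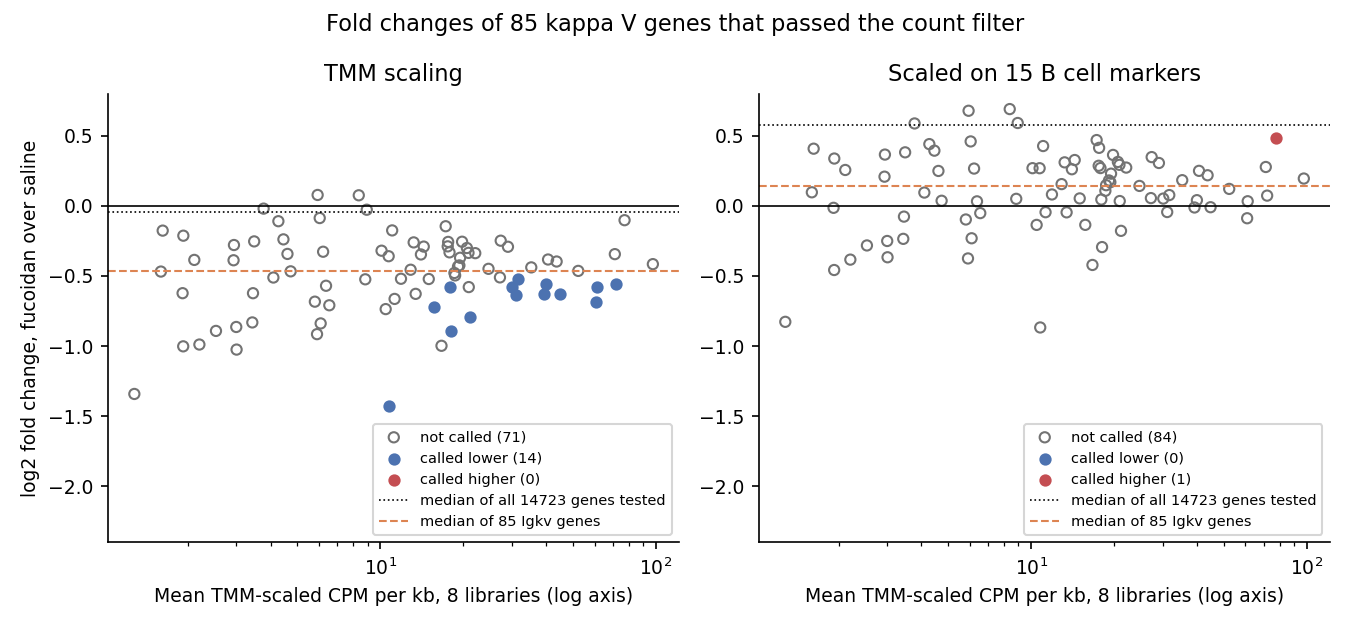
Log2 fold change (fucoidan over saline) of the 85 tested kappa V genes against their mean level (TMM-scaled CPM per kb, log axis), with TMM scaling at left and with scaling on 15 B cell markers at right. Filled points are genes called by edgeR; at left the cloud is centred at -0.46, below the median of all genes at -0.04, and at right at 0.14, below the median of all genes at 0.58.

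The Igkv6 subgroup held 4 of the 14 calls among 8 tested genes. Igkv6-15 (70383453 to 70383976, minus strand) had a CPM of 24.8, 22.3, 27.6, 25.3 and 23.1 in the saline libraries and 17.7, 15.6 and 12.4 in the fucoidan libraries. Every fucoidan library lay below every saline library (log2 fold change -0.68, SE 0.137, adjusted p = 0.00804 by edgeR). It was called when any single library was left out and under the replicate block (adjusted p = 0.0247).

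Igkv6-17 (70348423 to 70348977, plus strand) was the third most abundant kappa V gene. Its CPM was 33.8, 26.0, 31.7, 34.4 and 28.2 after saline and 20.6, 21.5 and 20.6 after fucoidan. The fucoidan values lay close together and below all saline values (log2 fold change -0.56, SE 0.120, adjusted p = 0.0112 by edgeR). Igkv6-20 at -0.72 and Igkv6-32 at -0.58 (log2 fold changes) were called with adjusted p = 0.0425 and 0.0481 by edgeR. Igkv6-13, whose V exon is shown beside that of Igkv6-15, was at 2.14 to 3.62 CPM after saline and 2.84, 3.28 and 3.19 after fucoidan. Those ranges overlap, with a log2 fold change of 0.07 (SE 0.244, adjusted p = 0.883 by edgeR), and its 29 to 69 counts per library give a wide error.

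The Igkv3 subgroup, the nearest to the J genes, held 4 calls among 7 tested genes. Igkv3-10 (70549617 to 70550214) was at 10.7, 7.49, 8.00, 9.94 and 9.82 CPM after saline and 6.16, 4.35 and 5.39 after fucoidan, without overlap (log2 fold change -0.79, SE 0.188, adjusted p = 0.0174 by edgeR). Igkv3-2 (70675433 to 70676051) was at 17.3, 13.6, 15.4, 19.2 and 20.0 CPM after saline and 11.8, 10.6 and 10.7 after fucoidan, also without overlap (log2 fold change -0.63, SE 0.153, adjusted p = 0.0192 by edgeR). Under the replicate block Igkv3-10 had an adjusted p of 0.0451 and Igkv3-2 of 0.0889 by edgeR. Igkv3-12 and Igkv3-4 had log2 fold changes of -0.64 and -0.63, with adjusted p = 0.0270 and 0.0401 by edgeR. Igkv3-1, the kappa V gene closest to the J genes, was at -0.84 with an SE of 0.433 and was not called (adjusted p = 0.236 by edgeR).

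The largest called change was that of Igkv14-126 (67873156 to 67873626), and its saline libraries were widely spread. Its CPM was 4.13, 5.01, 5.95, 2.25 and 7.98 in the saline libraries and 1.66, 2.60 and 1.32 in the fucoidan libraries. Saline replicate 4 lay among the fucoidan values, so the groups overlap although the gene was called (log2 fold change -1.43, SE 0.399, adjusted p = 0.0367 by edgeR). Igkv12-46 (69741507 to 69742006) was at 6.34, 7.43, 8.19, 10.2 and 9.14 CPM after saline and 4.08, 5.65 and 3.52 after fucoidan, without overlap. Its log2 fold change was -0.89 (SE 0.218, adjusted p = 0.0202 by edgeR), and -0.73 with adjusted p = 0.0804 under the replicate block. The remaining calls were Igkv17-121, Igkv10-96, Igkv14-111 and Igkv5-48, with log2 fold changes of -0.56, -0.58, -0.52 and -0.58 and adjusted p from 0.0244 to 0.0432 by edgeR.

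**Figure D3:**
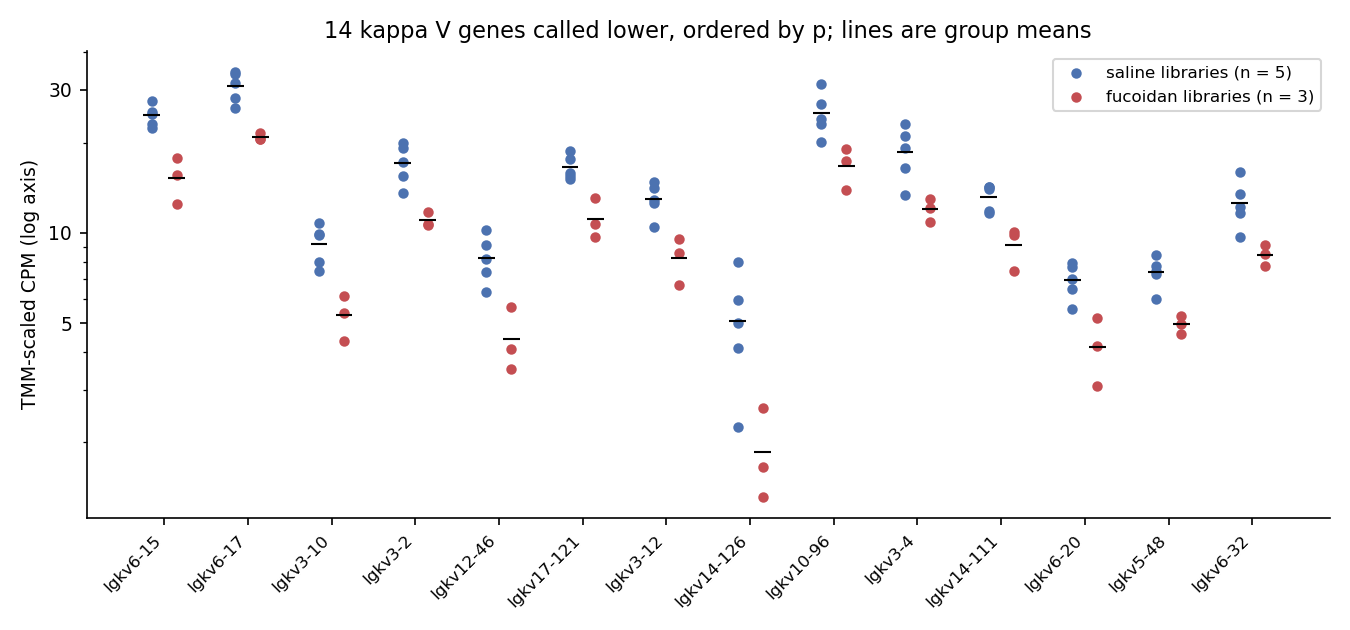
TMM-scaled CPM (log axis) of the 14 kappa V genes called lower, in each of 5 saline and 3 fucoidan libraries (points) with group means (lines), ordered by p. The groups do not overlap for 13 of the 14 genes, and overlap for Igkv14-126, where 1 saline library lies among the fucoidan libraries.

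Among the 12 most abundant kappa V genes, 6 were called lower, where 4.65% of all genes tested were. All 12 had a log2 fold change below 0, from -0.68 to -0.10. In order of level these were Igkv1-117 (97.7 CPM per kb over all libraries), Igkv1-135 (77.1), Igkv6-17 (71.9), Igkv1-110 (71.1), Igkv10-96 (61.1), Igkv6-15 (60.8), Igkv17-127 (52.4), Igkv3-4 (44.8), Igkv19-93 (43.7), Igkv6-23 (40.7), Igkv17-121 (40.0) and Igkv3-2 (39.2). Igkv1-117 was at 45.5, 36.8, 53.1, 42.7 and 39.8 CPM after saline and 34.3, 35.8 and 27.6 after fucoidan. Its groups do not overlap, but it was not called (log2 fold change -0.42, SE 0.138, adjusted p = 0.0693 by edgeR).

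Igkv1-135 had the smallest fold change among these 12. It was at 34.7, 29.7, 34.2, 29.6 and 27.9 CPM after saline and 34.1, 30.5 and 22.2 after fucoidan, and only fucoidan replicate 3 lay below the saline range. The log2 fold change was -0.10 (SE 0.143, adjusted p = 0.695 by edgeR). Igkv17-127, the near copy of Igkv17-121 whose V exon is shown above, was at 17.9, 19.6, 21.6, 24.9 and 21.0 CPM after saline and 17.4, 17.0 and 10.9 after fucoidan. It lay lower without overlap and was not called (log2 fold change -0.46, SE 0.170, adjusted p = 0.0968 by edgeR), while Igkv17-121 was called at -0.56 (SE 0.143, adjusted p = 0.0244 by edgeR). A difference between these 2 fold changes was not tested.

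The extremes among the rest were rare transcripts. After Igkv14-126, the lowest log2 fold changes were those of Igkv8-34 at -1.34 (SE 0.648) and Igkv4-90 at -1.03 (SE 0.568), from 63 and 136 counts over all libraries. The highest were those of Igkv4-74 at 0.08, Igkv6-13 at 0.07 and Igkv4-69 at -0.02 (SE 0.498), from 290, 372 and 162 counts. None of these 5 was called, and under other settings the sign of the 3 highest changed.

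The makeup of the kappa V transcripts was much alike in all libraries. The most abundant gene, Igkv1-117, took 6.57% of kappa V counts on average after saline and 6.77% after fucoidan, and the 12 leading genes of each library took 43.0% to 45.4% and 44.0% to 45.2%. In every library 15 or 16 genes held 50% of the kappa V counts. The effective number of genes, the exponential of the Shannon entropy of their shares, is the number of equally used genes that would give the same diversity. It was 55.0, 56.3, 54.5, 54.9 and 56.4 after saline and 53.9, 54.4 and 54.8 after fucoidan, which overlap. These libraries differ in kappa V counts. Thinned at random to the smallest kappa V total, the number was 54.1 to 56.0 after saline. It was then 52.8, 54.1 and 54.8 after fucoidan, which also overlap.

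Shares ranked alike in both groups. Over the 100 genes the mean shares after saline and after fucoidan had a Spearman rho of 0.987, as a description across genes that share libraries. The correlation of log2 shares between 2 libraries was 0.950 to 0.974 within saline, 0.936 to 0.948 within fucoidan and 0.937 to 0.964 between the groups. The range between groups thus covers most of that within fucoidan.

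Single shares were separate between the groups for 2 of 100 genes. With 5 and 3 libraries, some of 100 genes can separate with no difference between the groups, and shares were not tested. Igkv6-15 took 3.66%, 4.02%, 3.76%, 3.64% and 3.55% of kappa V counts after saline and 3.42%, 3.08% and 2.97% after fucoidan. Igkv3-12 took 1.85% to 2.27% after saline and 1.84%, 1.69% and 1.60% after fucoidan, so fucoidan replicate 1 lay just under the lowest saline library. Igkv1-135 took 5.12%, 5.34%, 4.66%, 4.26% and 4.29% after saline and 6.59%, 6.04% and 5.30% after fucoidan, where saline replicate 2 lay just above fucoidan replicate 3.

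By subgroup, the shares of the groups overlapped for all 20 subgroups. Igkv1, with 10 genes, took 17.2 ± 1.01% (SD, n = 5) of kappa V counts after saline and 19.4 ± 0.639% (SD, n = 3) after fucoidan, ranges that met only at 18.7%. None of its 8 tested genes was called, with a median log2 fold change of -0.30. Igkv3 took 11.4 ± 1.04% and 10.4 ± 0.873%, Igkv6 16.5 ± 0.751% and 15.6 ± 0.586%, and Igkv14, with 2 of 4 tested genes called, 3.56 ± 0.341% and 3.08 ± 0.370%. The medians of the log2 fold changes in these 3 subgroups were -0.63, -0.57 and -0.71.

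Igkv4, the largest subgroup with 26 genes, took 12.5 ± 0.767% and 13.0 ± 0.332%, and 0 of its 22 tested genes were called (median log2 fold change -0.36). Igkv8, with 10 genes, took 7.60 ± 0.302% and 8.00 ± 0.736%, and 0 of its 9 tested genes were called. For comparison, 4.65% of all genes tested were called lower. Differences between subgroups in their calls or fold changes were not tested.

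**Figure D4:**
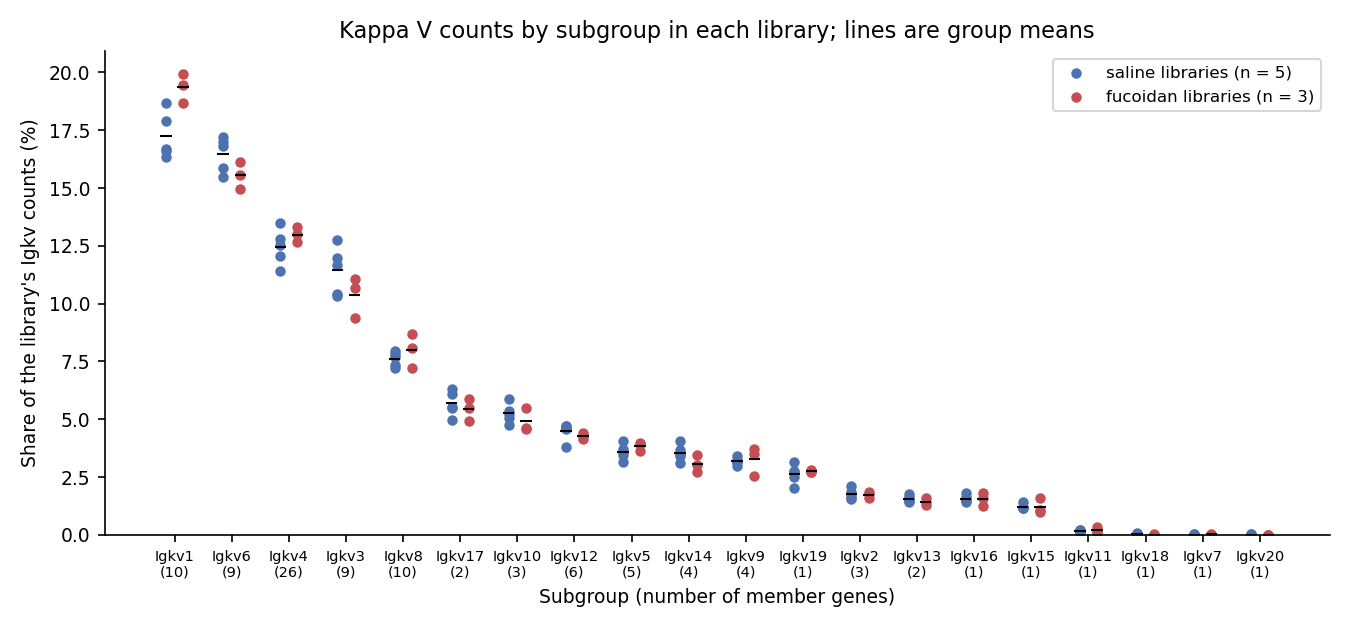
Share of each library's kappa V counts (percent) in 20 subgroups, ordered by the saline mean, with 5 saline and 3 fucoidan libraries as points and group means as lines. The ranges overlap in each subgroup, and Igkv1, Igkv6, Igkv4, Igkv3 and Igkv8 lead in that order in both group means.

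Along the locus the V genes lie in both orientations, which decides whether joining to J deletes or inverts the DNA between them. On the strand of Igkj and Igkc (plus) there were 38 genes and on the opposite strand 62. Plus-strand genes took 52.7 ± 1.15% (SD, n = 5) of kappa V counts after saline and 52.4 ± 1.46% (SD, n = 3) after fucoidan, which overlap. Of 33 plus-strand genes tested 8 were called lower (median log2 fold change -0.50), and of 52 minus-strand genes 6 (median -0.43). The share called lower over all genes tested was 4.65%, and a difference between the strands was not tested.

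Calls were counted in 3 stretches by distance from Igkj1, with no test between them. Within 1000 kb of Igkj1 were 40 genes, of which 32 were tested and 10 called lower (median log2 fold change -0.54). Between 1000 and 2000 kb, 0 of 27 tested genes were called (median -0.40), and beyond 2000 kb 4 of 26 (median -0.43). Over all genes tested 4.65% were called lower, and over the kappa V genes tested 16.5%. The 0 of 27 is thus near the share of all genes. The middle stretch held fewer abundant genes, with a median level of 6.03 CPM per kb against 17.4 for the near and 10.7 for the far stretch. Across the 85 tested genes the Spearman rho of distance with log2 fold change was 0.12. The near stretch took 42.8 ± 1.33% and 41.2 ± 1.80% of kappa V counts after saline and fucoidan, the middle 17.5 ± 0.824% and 18.1 ± 0.408%, and the far stretch 39.7 ± 0.923% and 40.7 ± 2.2%, each with overlapping ranges.

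**Figure D5:**
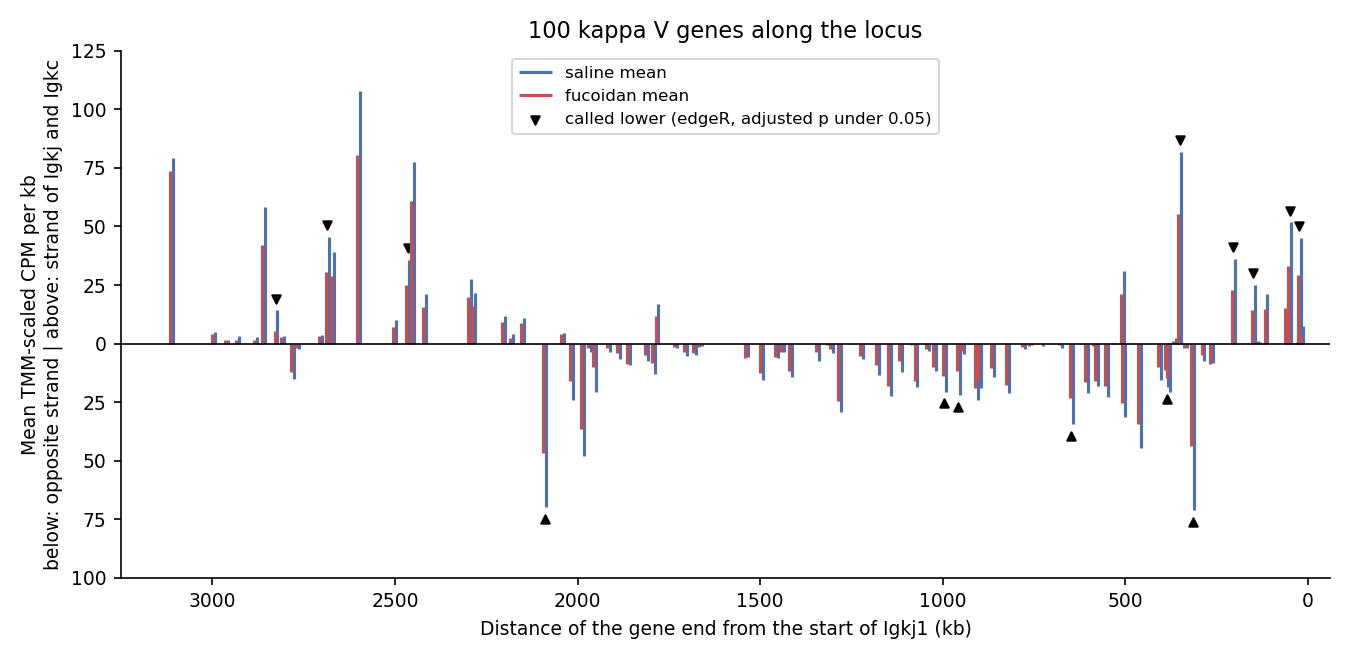
Mean level (TMM-scaled CPM per kb) of the 100 kappa V genes in saline and fucoidan libraries against the distance of each gene from Igkj1 (kb), with genes on the strand of Igkj and Igkc above 0 and the others below. Triangles mark the 14 genes called lower, 10 of which lie within 1000 kb, and the paired lines show saline above fucoidan for nearly every abundant gene.

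Other genes of the light chain loci were measured in the same libraries. Transcripts of the 5 joining genes Igkj1 to Igkj5 were few, and none was called. Together they gave 1.98 counts per 100 Igkc counts in saline replicate 1, 3.56 to 5.34 in the other saline libraries and 3.39, 4.64 and 4.09 after fucoidan. Of the lambda constant genes, which serve the other light chain, Iglc2 was called lower (log2 fold change -0.57, SE 0.134, adjusted p = 0.0177 by edgeR). Iglc3 was at -0.61 (adjusted p = 0.0670) and Iglc1 at -0.10 (adjusted p = 0.666), both not called by edgeR. Kappa V counts per lambda V count (Iglv1 and Iglv2, Iglv3 having no counts) were 7.06, 8.37, 11.7, 8.74 and 8.38 after saline and 6.23, 7.36 and 7.93 after fucoidan. The groups overlap, and the ratio of group means was 0.810. The log2 fold changes of Iglv1 and Iglv2 were -0.12 and -0.31, neither called by edgeR.

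The heavy chain V genes, which pair with these light chains, had a median log2 fold change of -0.50 over 88 tested genes. Of these 2 were called lower, or 2.27% where 4.65% of all genes were, and 0 higher. That count moved with the setting. It was 12 of 87 without saline replicate 2 (13.8%, against 4.57% of all genes). It was 9 with limma-voom (10.2% against 7.13%) and 8 with DESeq2 (9.41% against 6.05%). Upper-quartile factors also gave 9 (10.2%), where 989 of all 14723 genes were called lower. It was 0 under the replicate block, and also when fucoidan replicate 2, fucoidan replicate 3 or the saline library of replicate 4 was dropped. In those fits 1.20% to 2.98% of all genes were called lower. Ighd, the heavy chain constant gene of naive B cells, was called lower (log2 fold change -1.06, SE 0.169, adjusted p = 0.00396 by edgeR). Ighm, that of IgM, was at -0.40 and not called (adjusted p = 0.105 by edgeR). Igha, that of IgA, was at 123 to 189 CPM after saline and at 51.8, 255 and 194 after fucoidan. Jchain, which joins IgA and IgM chains in secreting cells, was likewise lowest in fucoidan replicate 1, at 11.0 CPM against 24.6 to 38.9 after saline and 45.1 and 37.6 in the other 2.

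Of all genes tested, 4.65% were called lower and 9.11% higher, and the counts that follow stand beside those shares. Of 18 factors known to act on the kappa locus, 4 were called lower and 0 higher, with a median log2 fold change of -0.26. They were Ebf1 at -0.65, Pax5 at -0.62, Pou2f2 at -0.45 and Tcf3 at -0.40, of which Ebf1 and Pax5 are also among the B cell markers. Of 15 B cell markers 12 were called lower and 0 higher (median -0.65), Fcer2a (CD23) at -1.15 and Cd22 at -0.87 among them. Spib and Cd72 were both at 0.00 and Ms4a1 at -0.28, not called. Of 11 tested genes of the V(D)J recombination machinery 0 were called, at a median of -0.17. With so few genes, 0 calls is near the shares of all genes. Among 10 plasma cell markers 1 was called higher (Edem1 at 0.67) and 2 lower (Sdc1 at -0.77 and Mzb1 at -0.92). The median over the 10 was 0.06.

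When library sizes were set to the summed counts of the B cell markers, none of the kappa V genes was called lower, where 0.278% of all genes were, and 1 was called higher, Igkv1-135 (log2 fold change 0.49, adjusted p = 0.0216 by edgeR), where 51.8% of all genes were. The median over the 85 genes was 0.14 and over all genes 0.58, with 60 of the 85 above 0 and a range from -0.87 to 0.69. On this scale Igkv14-126 was the lowest kappa V gene (adjusted p = 0.0870 by edgeR) and Igkv6-15 was at -0.09.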

How the data were processed

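The authors deposited raw counts per gene, and the table gives each gene's biotype and position. In the submitters' processing notes, cutadapt 4.0, Trimmomatic 0.39 and HISAT2 2.2.1 are named with the build GRCm39 (mm39). The sources used here do not say which program counted reads, with which strand setting, or what became of reads with several hits, so overlapping and antisense transcripts cannot be told apart. Groups follow the titles, although the treatment field of the fucoidan samples names saline. The labels give no division into batches.

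Counts were filtered with filterByExpr, scaled with TMM and tested with edgeR 4.0.16 (R 4.3.3) in robust quasi-likelihood mode. This mode was checked on simulated counts with known folds in genes drawn at random, which did not model the haemoglobin rise seen here. P-values were adjusted by the Benjamini-Hochberg method over all 14723 genes tested. Sums, ratios and shares used all 100 genes and carry no test. Named genes are the 12 most abundant, every gene called, the 3 highest and lowest fold changes, and genes nearest to and farthest from Igkj1. The members and lists were chosen with earlier results of these data known. V exons were aligned globally with Biopython 1.88. Same-numbered libraries of the 2 groups correlated at 0.177, 0.233 and 0.144 after the group means were removed. Differently numbered ones correlated at -0.261 to 0.144, so a pairing by number is uncertain, and no source used here states one. The main fit therefore took no pairs, and the replicate number was a block in an alternative only. Alternatives were other factors, filters, DESeq2 1.42.0, limma-voom (limma 3.58.1), the block and leaving out each library.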

Additional observations from a re-analysis of the deposited data

Results flagged for a closer look

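Of 66 values checked over the 5 saline libraries, 3 had 1 library far from the others; chance gives about 1 in 20. The Igkv12 subgroup took 3.82% of kappa V counts in saline replicate 1 and 4.58% to 4.71% in the other saline libraries. Igkv15, a subgroup of 1 gene, took 1.40% in saline replicate 4 and 1.15% to 1.19% in the others. Igha was at 123 CPM in saline replicate 4 and 173 to 189 CPM in the others.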

How the results depend on the processing

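With library sizes set to the B cell markers, 7673 of all genes were called in place of 2025, 0 kappa V genes were called lower and 1 higher, and the median log2 fold change of kappa V genes was 0.14. On that scale these log2 fold changes turned positive: Igkv1-117 0.19, Igkv1-135 0.49, Igkv6-17 0.072, Igkv1-110 0.28, Igkv10-96 0.032, Igkv17-127 0.12, Igkv19-93 0.22, Igkv6-23 0.25, Igkv17-121 0.040, Igkv14-111 0.076, Igkv5-48 0.044, Igkv6-32 0.051, Igkv4-69 0.59, Igkv1-133 0.25, Igkc 0.12, Iglc1 0.50, Iglc2 0.050, Iglc3 0.012, Iglv1 0.47, Iglv2 0.27 and Ighm 0.21. The replicate block gave 4 kappa V genes lower in place of 14, and -0.031 for Igkv4-74; it called 0 higher. As a share of the total count the kappa V ratio was 0.566. Limma-voom gave 0.024 for Igkv1-135 and 0.31 for Igkv4-69. Leaving out 1 library gave 928 to 2224 genes called, 1 to 17 kappa V genes lower, 0 higher, a median of -0.51 to -0.38, a summed ratio of 0.697 to 0.772, ratios to Igkc of 0.980 to 1.05, to lambda V of 0.768 to 0.882 and to B cell markers of 1.07 to 1.15, and a ratio of effective numbers of 0.977 to 0.985. It moved the log2 fold change across 0 for Igkv1-135 (-0.24 to 0.061), Igkv4-69 (-0.37 to 0.26), Igkv6-13 (-0.021 to 0.16), Igkv4-74 (-0.091 to 0.23), Iglc1 (-0.19 to 0.0030) and Iglv1 (-0.30 to 0.031). The other scalings, filters and tools kept the count of kappa V genes called lower at 12 to 17. The cause of these changes was not tested. Depth limits the rare genes most: 15 of the 100 did not pass the filter, and fucoidan replicate 3 had 3808 kappa V counts.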
